A study of Mus musculus with 4 samples.

Results

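TNF receptor death signalling is represented here by 10 genes. They are the ligand gene Tnf, its receptor gene Tnfrsf1a, the adaptor genes Tradd and Fadd, the kinase genes Ripk1 and Ripk3, the pore-forming effector gene Mlkl, the caspase gene Casp8, its inhibitor Cflar, and the feedback gene Tnfaip3. They were chosen by symbol from a count table of 50600 genes. All 10 were found, each in 1 row, and all 10 passed the filter on low counts that left 14861 genes for testing. The table covers primary colonic epithelial cells of C57BL/6 mice in 4 libraries, 2 from Mettl14 knockout (KO) and 2 from wild-type (WT) animals. Mettl14 encodes a subunit of the enzyme that writes N6-methyladenosine (m6A) into mRNA. The treatment, age, Cre driver, deleted exons and method of cell isolation of either group were not stated in the labels used here. The transcripts of Xist and of Y-linked genes placed a female (replicate 1) and a male (replicate 2) library in KO, and a male (replicate 1) and a female (replicate 2) library in WT.

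Tumour necrosis factor binds TNFR1, the product of Tnfrsf1a, whose death domain recruits TRADD and RIPK1. While this membrane complex is ubiquitinated it signals to NF-kB, and the cell survives. When it is not, a cytosolic complex of FADD and caspase-8 starts apoptosis, and the caspase homologue cFLIP, encoded by Cflar, limits that step. Where caspase-8 is blocked, RIPK1 and RIPK3 assemble through a shared interaction motif, and RIPK3 phosphorylates MLKL, which permeabilises the plasma membrane in necroptosis. A20, encoded by Tnfaip3, edits the ubiquitin chains and is itself induced by NF-kB. In mice, loss of caspase-8 or FADD from the gut epithelium leads to RIPK3-dependent death of epithelial cells.

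Upstream windows of 3 members are shown because the results below turn on them. Tnf and Tnfaip3 are textbook targets of NF-kB, and Fadd is the member that passed the test. Each window is the 250 bases before a RefSeq transcript start (GRCm38.p6), written 5′ to 3′ on the gene's own strand. Capitals mark the letters GGNNNTTCC on either strand, a short form of the NF-kB core. The windows lie at chr17:35202008-35202257 (minus strand, Tnf), chr10:19015411-19015660 (minus strand, Tnfaip3) and chr7:144582442-144582691 (minus strand, Fadd).
Tnf: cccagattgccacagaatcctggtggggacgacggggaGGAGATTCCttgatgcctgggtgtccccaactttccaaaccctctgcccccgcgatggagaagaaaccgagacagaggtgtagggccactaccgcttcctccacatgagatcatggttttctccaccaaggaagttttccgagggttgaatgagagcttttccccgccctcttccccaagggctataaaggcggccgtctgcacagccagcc
Tnfaip3: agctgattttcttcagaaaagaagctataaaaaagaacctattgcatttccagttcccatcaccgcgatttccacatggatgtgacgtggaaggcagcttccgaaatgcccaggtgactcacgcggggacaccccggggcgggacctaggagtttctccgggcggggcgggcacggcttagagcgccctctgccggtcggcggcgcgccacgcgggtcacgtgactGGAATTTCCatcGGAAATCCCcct
Fadd: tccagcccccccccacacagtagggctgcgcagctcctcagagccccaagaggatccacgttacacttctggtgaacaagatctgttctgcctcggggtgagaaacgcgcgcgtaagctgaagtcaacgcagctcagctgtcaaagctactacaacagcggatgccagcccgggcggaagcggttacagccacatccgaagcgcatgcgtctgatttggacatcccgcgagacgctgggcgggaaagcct
The Tnfaip3 window held 2 matches, GGAATTTCC and GGAAATCCC, which ended 15 and 3 bases before the start. The Tnf window held 1 match, GGAGATTCC, which ended 203 bases before the start, and the Fadd window held 0. A window was found for 9 of the 10 members, and 4 of their 11 windows held the letters, against 15.7% of 32851 windows over all genes. The other matches were in Tnfrsf1a and at a further start of Tnfaip3. These matches are letters in a window and say nothing of binding.

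Library totals ran from 22136440 to 24991060 counts, so that a count of 0 allows up to 0.12 to 0.136 CPM (counts scaled to an equal library total), for counting error alone. Mettl14 was at 3.99 and 3.94 CPM in KO, against 11.7 and 8.67 CPM in WT, a log2 fold change of -1.36 (edgeR adjusted p = 0.0504). Both KO libraries lay below both WT libraries, and the call narrowly missed the threshold, which 8 of 15 alternatives passed. Over all genes, edgeR's quasi-likelihood test called 255 higher and 282 lower in KO at an adjusted p under 0.05, which is 3.61% of the genes tested. That fit gave 47.5% of its calls as higher, library size scaling gave 76.5% and upper quartile factors 61.1%. Library size scaling moved the median log2 fold change of all genes from -0.01 to 0.15. The labels do not say whether the libraries came from separate animals or pools. The sexes differ within each group, so its 2 libraries did not come from a single animal, and a p-value here reflects the spread among these 4 libraries alone.

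Fadd rose in KO cells, and the other members did not pass the test. With 1 of 10 called higher, against 1.72% of all genes tested, and 0 called lower, against 1.9%, edgeR placed Fadd alone past the threshold. In bulk RNA, fewer cells of a type and less RNA per cell cannot be told apart. At an unadjusted p under 0.05, which 30.5% of all genes reached in either direction, the counts were also 1 and 0, and both DESeq2 and limma-voom called 1 higher and 0 lower. The median log2 fold change of the members was 0.27, against -0.01 for all genes tested. Their median size regardless of sign was 0.27, below the 0.37 of all genes. The groups did not overlap for 4 members, all higher in KO (Fadd, Tnf, Ripk3 and Ripk1), where 31.1% of all genes were higher without overlap and 32.2% lower. In 7 of the 10 members WT replicate 1 was the lowest of the 4 libraries, against 26.4% of the 10057 genes with a mean of at least 5 CPM.

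**Figure D1:**
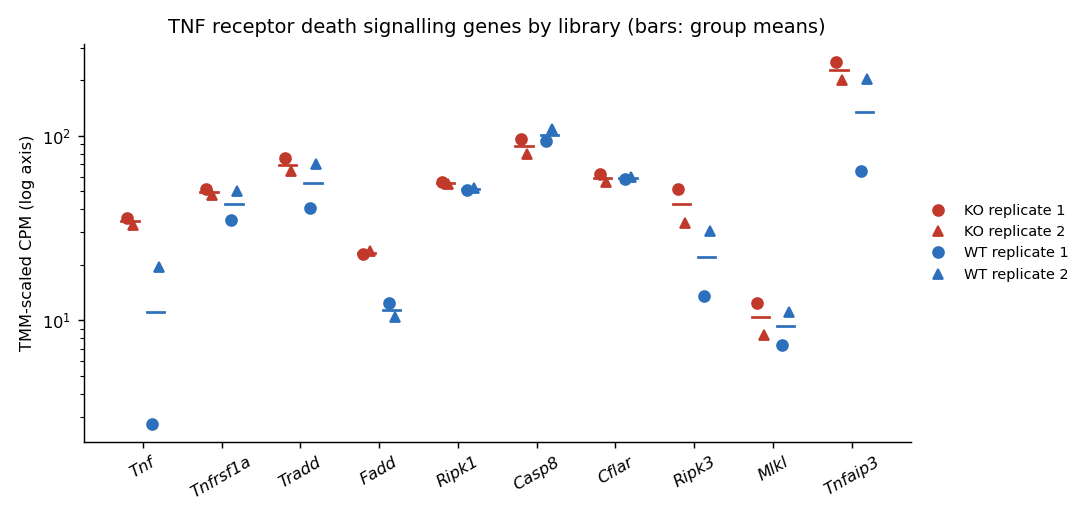
TMM-scaled CPM of the 10 genes on a log axis, with KO (red) left of WT (blue), circles for replicate 1, triangles for replicate 2 and bars for group means. Fadd separates the genotypes with close replicates, whereas Tnf, Tnfaip3 and Ripk3 have 1 low library, WT replicate 1, at 2.75, 64.8 and 13.6 CPM.

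Fadd encodes the adaptor that links death receptors to caspase-8 through a death domain and a death effector domain. It had 512 and 608 counts (22.7 and 23.7 CPM) in KO, against 256 and 247 counts (12.3 and 10.4 CPM) in WT. Both KO libraries stood at about the same level and well above both WT libraries. The mean was 23.2 ± 0.701 CPM in KO and 11.4 ± 1.37 CPM in WT (SD, n = 2 each), a 2.04-fold rise (log2 fold change 1.03, SE 0.14, edgeR adjusted p = 0.0444). Fadd lies at 144577318 to 144582463 on chromosome 7 (minus strand, GRCm38). The antisense gene Faddos covers 6.12% of its exon bases, and was at 1 and 1 count in KO and 0 and 3 counts in WT. The log2 fold change of Fadd was 1.16 without WT replicate 1 and 0.94 without WT replicate 2. It was 1.06 without KO replicate 1 and 1.02 without KO replicate 2, and the call was lost in both of these fits. A fit without a library takes its spread from the other group alone, so whether it passes decides nothing.

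Tnf encodes the ligand, which is made mainly by immune cells and in smaller amounts by the epithelium. It had 811 and 842 counts (36.0 and 32.8 CPM) in KO, against 57 and 460 counts (2.75 and 19.4 CPM) in WT. The KO libraries were alike and above both WT libraries, but WT replicate 1 held 14.2% of the level of WT replicate 2. The mean was 34.4 ± 2.23 CPM in KO and 11.1 ± 11.7 CPM in WT (SD, n = 2 each). The log2 fold change of 1.63 (SE 0.85) was the largest of the 10 and did not pass the test (edgeR adjusted p = 0.266). It was 0.83 without WT replicate 1 and 3.68 without WT replicate 2. Such fits take their spread from the 2 KO libraries alone, which were close, so whether they pass decides nothing. The gap between the 2 WT libraries was 2.82 on the log2 scale, and 0.348% of the genes with a mean of at least 5 CPM had a WT gap as wide. Markers of neutrophils and of macrophages and monocytes were also lowest in WT replicate 1. The neutrophil sum there was 49.3 CPM, of which Ly6g made up 38.2 CPM, and the macrophage and monocyte sum was 134 CPM. The part of these cells in the Tnf level was not tested.

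Tnfrsf1a encodes the receptor TNFR1. It was at 51.7 and 47.7 CPM in KO, against 35.1 and 50.5 CPM in WT. WT replicate 2 lay between the KO libraries, and WT replicate 1 stood below the other 3. The log2 fold change was 0.22 (SE 0.20, edgeR adjusted p = 0.495). It was -0.02 without WT replicate 1 and 0.54 without WT replicate 2.

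Tradd encodes the first adaptor on the receptor. It was at 75.5 and 64.2 CPM in KO, against 40.3 and 70.5 CPM in WT. WT replicate 1 was again the low library, and WT replicate 2 lay between the KO libraries. The log2 fold change was 0.33 (SE 0.29, edgeR adjusted p = 0.478), with -0.01 without WT replicate 1 and 0.82 without WT replicate 2. Tradd and Fadd, both adaptors, thus had their low WT values in different libraries, since Fadd was lowest in WT replicate 2.

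**Figure D2:**
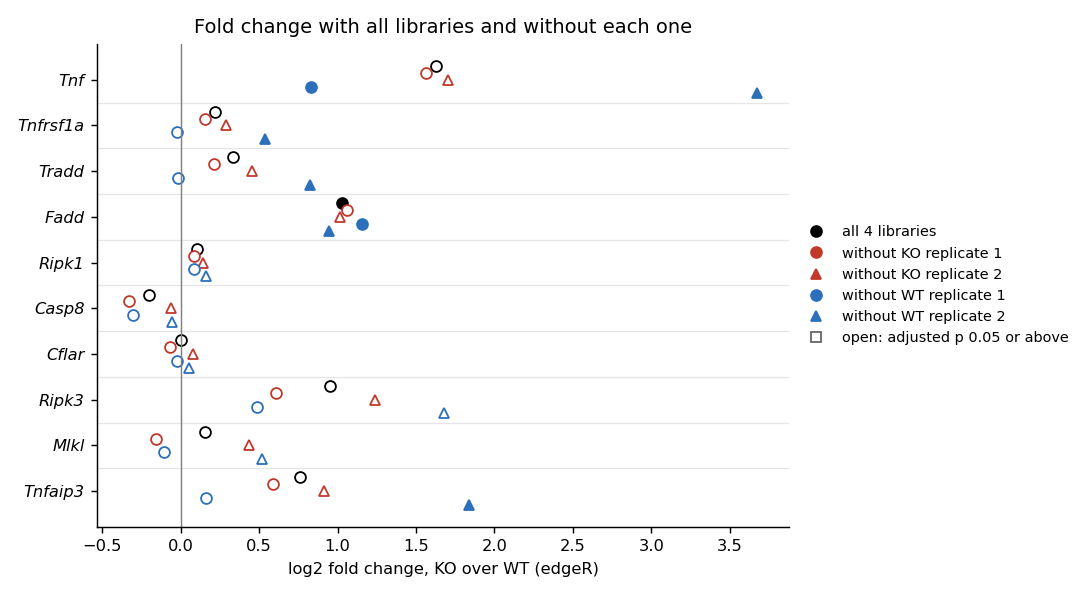
The edgeR log2 fold change (KO over WT) of each gene with all 4 libraries (black) and without each library in turn, filled where the adjusted p was under 0.05. Fits without a library take their spread from the other group alone, so their filling decides nothing. Fadd stays between 0.94 and 1.16, whereas Tnf spans 0.83 to 3.68 and Tnfaip3 0.16 to 1.84, according to which WT library is left out.

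Ripk1 encodes the kinase shared by the survival and death complexes. It was at 56.3 and 54.6 CPM in KO, against 50.7 and 52.3 CPM in WT. The groups did not overlap, yet they lay close together, with a log2 fold change of 0.11 (SE 0.09, edgeR adjusted p = 0.48). The gap between its replicates was 0.04 in KO and 0.05 in WT on the log2 scale. Serpinb6a, on the opposite strand, and the pseudogene Gm17084, on the same strand, overlap 9.01% of the exon bases of Ripk1. Gm17084 had 1 and 18 counts in KO, against 36 and 34 counts in WT. Serpinb6a had 8654 and 9385 counts in KO, against 7364 and 9078 counts in WT, and without a stated strand setting reads of the overlap cannot be told apart, so the Ripk1 level is uncertain.

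Casp8 encodes the initiator caspase that FADD recruits. It was at 95.6 and 80.1 CPM in KO, against 93.4 and 108 CPM in WT. The groups overlapped, and the log2 fold change of -0.20 (SE 0.15, edgeR adjusted p = 0.401) was the most negative among the members. It ran from -0.33 without KO replicate 1 to -0.06 without WT replicate 2. Cflar, which lies 36.5 kb upstream of Casp8 on chromosome 1 on the same strand, encodes its catalytically inactive homologue cFLIP. It was at 61.7 and 56.3 CPM in KO, against 58.2 and 59.9 CPM in WT. The 4 values were nearly level, with a log2 fold change of -0.0002 (SE 0.10, edgeR adjusted p = 0.999) that changed sign with the scaling and ran from -0.07 to 0.16 over 15 alternatives. The log2 ratio of Cflar to Casp8 counts was -0.63 and -0.51 in KO, against -0.68 and -0.85 in WT.

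Ripk3 encodes the necroptosis kinase. It had 1162 and 861 counts (51.5 and 33.6 CPM) in KO, against 282 and 721 counts (13.6 and 30.3 CPM) in WT. KO replicate 1 was the highest and WT replicate 1 the lowest, and KO replicate 2 was just above WT replicate 2. The log2 fold change was 0.95 (SE 0.44, edgeR adjusted p = 0.223). It passed with sex as a covariate (1.03, edgeR adjusted p = 0.0343). That setting called 1409 genes over all, against 537 in the main fit. The log2 fold change of Ripk3 was 0.49 without WT replicate 1 and 1.68 without WT replicate 2, and neither passed. Mlkl, the substrate of RIPK3, was the least abundant member before correction for length, at 12.4 and 8.30 CPM in KO, against 7.37 and 11.1 CPM in WT. Its groups overlapped (log2 fold change 0.16, SE 0.30, edgeR adjusted p = 0.754), and the value was -0.11 without WT replicate 1 and -0.16 without KO replicate 1.

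Tnfaip3 encodes A20. It had 5663 and 5177 counts (251 and 202 CPM) in KO, against 1345 and 4820 counts (64.8 and 203 CPM) in WT. KO replicate 2 and WT replicate 2 were level, and WT replicate 1 was at 31.9% of WT replicate 2. The mean was 226 ± 34.9 CPM in KO and 134 ± 97.6 CPM in WT (SD, n = 2 each). The log2 fold change of 0.76 (SE 0.55) did not pass (edgeR adjusted p = 0.401), and was 0.16 without WT replicate 1 and 1.84 without WT replicate 2. Of the genes with a mean of at least 5 CPM, 1.79% had a WT gap as wide as its 1.65 on the log2 scale.

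For several members the 2 WT libraries lay further apart than the KO libraries. The median gap between replicates over the 10 members was 0.18 in KO and 0.56 in WT on the log2 scale, against 0.13 in KO and 0.21 in WT over the 10057 genes with a mean of at least 5 CPM. The WT gaps of Tnf, Tnfaip3, Ripk3 and Tradd were the 4 widest, at 2.82, 1.65, 1.16 and 0.81. Those of Cflar, Ripk1, Casp8 and Fadd were the 4 narrowest, at 0.04, 0.05, 0.21 and 0.25.

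Per kilobase of exon (the union of GENCODE M21 exons), Tradd, Casp8 and Tnfaip3 stood highest and Cflar, Fadd and Mlkl lowest. In CPM per kilobase, Tradd was at 37.4 ± 4.28 in KO and 29.7 ± 11.4 in WT, and Casp8 at 30.4 ± 3.78 in KO and 34.9 ± 3.62 in WT (SD, n = 2 each). These 2 neighbours do not differ beyond their spread. Tnfaip3 was at 31.3 ± 4.83 in KO and 18.5 ± 13.5 in WT, Tnfrsf1a at 19.2 ± 1.11 in KO and 16.5 ± 4.20 in WT, Ripk3 at 18.6 ± 5.54 in KO and 9.58 ± 5.17 in WT, and Tnf at 21.0 ± 1.36 in KO and 6.74 ± 7.17 in WT. Ripk1 was at 6.64 ± 0.145 in KO and 6.17 ± 0.138 in WT. Cflar, at 4.66 ± 0.302 in KO and 4.66 ± 0.0968 in WT, Fadd, at 5.94 ± 0.180 in KO and 2.91 ± 0.351 in WT, and Mlkl, at 4.49 ± 1.25 in KO and 4.01 ± 1.15 in WT, made up the low end. With the length of the longest coding transcript in place of the exon union, Tnfaip3 came first and Fadd last, so the order depends on the transcript assumed.

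Ratios of member pairs within a library compare arms of the pathway without any scaling factor. The log2 ratio of Ripk3 to Casp8 counts was -0.89 and -1.26 in KO, against -2.78 and -1.83 in WT, a difference of 1.23. That of Ripk3 to Ripk1 was -0.13 and -0.70 in KO, against -1.90 and -0.79 in WT. Both set the necroptosis kinase higher, relative to its partners, in the KO libraries, although KO replicate 2 and WT replicate 2 lay close for the second. The log2 ratio of Mlkl to Ripk3 was -2.06 and -2.02 in KO, against -0.88 and -1.45 in WT. The log2 ratio of Tnfaip3 to Tnf, the feedback gene to the ligand, was 2.80 and 2.62 in KO, against 4.56 and 3.39 in WT. None of the 5 pairs overlapped between genotypes. Of single genes, 31.1% were higher and 32.2% lower without overlap, and the share over all pairs was not computed. Several of the pairs share Ripk3, so they are not separate observations. The exact two-sided permutation test gave p = 0.333 for each, which is the smallest that 2 against 2 libraries allow.

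**Figure D3:**
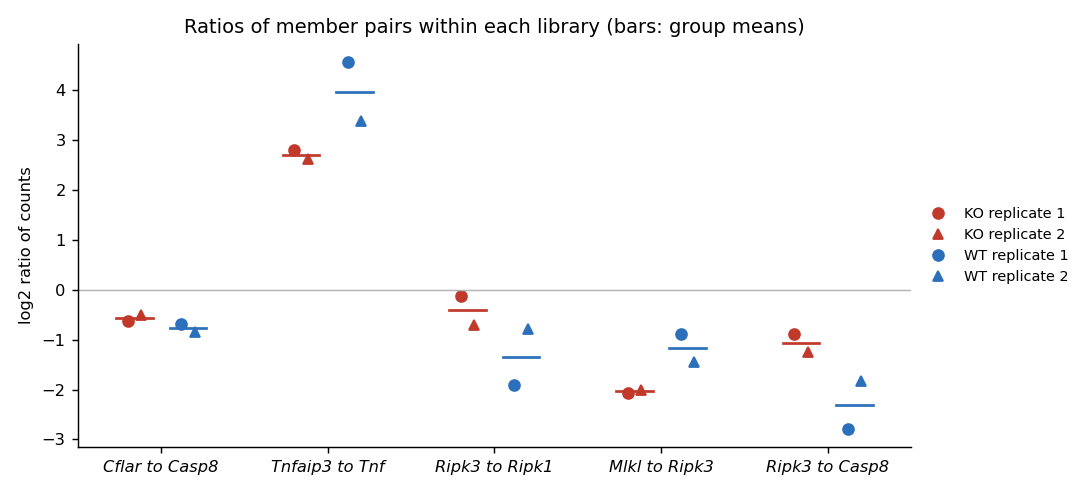
The log2 ratio of counts for 5 pairs of genes within each library, with KO (red) left of WT (blue) and bars for group means. The Tnfaip3 to Tnf ratio is lower in both KO libraries (2.80 and 2.62) than in both WT libraries (4.56 and 3.39), and the Cflar to Casp8 ratio differs least, by 0.20.

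The rest of the pathway was followed through 6 lists with 94 genes, all of which were tested. Of these, 2 rose (Tlr3 and Tnfsf15), which is 2.13%, against 1.72% of all genes, and 0 fell, against 1.9%. At an unadjusted p under 0.05, 18 were higher and 10 lower, together 29.8% of the list genes, against 30.5% of all genes tested. DESeq2 called 11 higher and 3 lower, against 952 higher and 975 lower over all 14861 genes. The limma-voom counts were 1 and 0, against 282 and 300 over all genes. The edgeR count of higher genes also moved without either WT library, as did the count over all genes.

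Among 20 other ligands, receptors and shedding factors of the TNF superfamily, Tnfsf15, which encodes the ligand TL1A, rose. It was at 3.68 and 4.48 CPM in KO, against 0.915 and 1.09 CPM in WT (log2 fold change 2.01, SE 0.31, edgeR adjusted p = 0.0472). The list's median log2 fold change was 0.57. The call of Tnfsf15 was lost with relative log expression factors and limma-voom, by a narrow margin (adjusted p = 0.0505 each), and without either KO library. Tnfrsf1b, the second TNF receptor, was at 79.4 and 51.2 CPM in KO, against 14.8 and 33.7 CPM in WT (1.42, edgeR adjusted p = 0.126). Tnfrsf1b passed with sex as a covariate (edgeR adjusted p = 0.0247) and with DESeq2 (adjusted p = 0.0103). These settings called 1409 and 1927 genes over all, against 537 in the main fit. The log2 fold change of Tnfrsf1b was 2.17 without WT replicate 2 and 0.95 without WT replicate 1. Ltbr, the lymphotoxin beta receptor, was at 60.5 and 58.1 CPM in KO, against 54.7 and 64.3 CPM in WT, and the sign of its difference changed with the scaling. Tnfrsf21, a death receptor, was at 54.6 and 53.9 CPM in KO, against 32.6 and 60.1 CPM in WT (0.23, edgeR adjusted p = 0.645). Its log2 fold change was -0.15 without WT replicate 1 and 0.77 without WT replicate 2.

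Among 10 other inputs and regulators of necroptosis, Tlr3, which senses double-stranded RNA and can reach RIPK3 through the adaptor TRIF, rose. It was at 29.6 and 30.3 CPM in KO, against 15.3 and 16.5 CPM in WT (log2 fold change 0.91, SE 0.11, edgeR adjusted p = 0.0434). As with Fadd, replicates were close in both groups, and the call held in every alternative that kept all 4 libraries. It was lost without either KO library. Whether a fit without a library passes decides nothing. The phosphatase gene Ppm1b (-0.03, and 0.14 with library size scaling) overlapped between genotypes. The ubiquitin ligase gene Stub1 was at 49.5 and 49.5 CPM in KO, against 70.0 and 61.4 CPM in WT (-0.41, edgeR adjusted p = 0.0924). Its log2 fold change was -0.47 without WT replicate 2. The median of that list was 0.14.

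The 24 adaptors, ubiquitin ligases, deubiquitinases and kinases of the receptor complex had 0 calls, with 2 higher and 2 lower at an unadjusted p under 0.05 and also by DESeq2, 0 by limma-voom, and a median of -0.02. Birc3, which encodes cIAP2, a ubiquitin ligase induced by NF-kB, was at 162 and 182 CPM in KO, against 32.4 and 82.4 CPM in WT (log2 fold change 1.59, edgeR adjusted p = 0.109). Both KO libraries lay above both WT libraries, and it passed with DESeq2 (adjusted p = 0.00251). Its log2 fold change was 1.06 without WT replicate 1 and 2.45 without WT replicate 2. Tax1bp1, a partner of A20, was at 266 and 220 CPM in KO, against 394 and 472 CPM in WT (-0.84, edgeR adjusted p = 0.0637). Tax1bp1 passed with sex as a covariate (edgeR adjusted p = 0.036), with DESeq2 (adjusted p = 0.00136) and with no filter (edgeR adjusted p = 0.0307). These settings called 1409, 1927 and 1632 genes over all, against 537 in the main fit. The log2 fold change of Tax1bp1 was -0.96 without WT replicate 1. Tab2, a subunit of the TAK1 kinase complex, was at 104 and 97.2 CPM in KO, against 89.4 and 87.6 CPM in WT (0.18, edgeR adjusted p = 0.294).

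The 13 genes of apoptosis execution had 0 calls by edgeR, DESeq2 and limma-voom, with 3 higher and 3 lower at an unadjusted p under 0.05 and a median of -0.04. Cytochrome c (Cycs, -0.04, and 0.11 with library size scaling) and the mitochondrial pore gene Bak1 (0.03) overlapped between genotypes. The 10 RNA-binding regulators of Tnf mRNA also had 0 calls, with 0 higher and 3 lower at an unadjusted p under 0.05, 1 lower by DESeq2, 0 by limma-voom, and a median of -0.17. Zfp36 encodes tristetraprolin, which binds AU-rich elements of Tnf mRNA and hastens its decay. It was at 311 and 252 CPM in KO, against 386 and 524 CPM in WT (-0.69, edgeR adjusted p = 0.119). Zfp36 passed with DESeq2 (adjusted p = 0.0381) and was at -0.42 without WT replicate 2. Its relative Zfp36l2 was at 154 and 161 CPM in KO, against 203 and 202 CPM in WT (-0.37, edgeR adjusted p = 0.118). Hnrnpd was at 68.9 and 61.1 CPM in KO, against 57.9 and 62.2 CPM in WT.

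The 17 genes that NF-kB induces had the highest median log2 fold change of the 6 pathway lists, 0.93, with 0 calls, 4 higher by DESeq2 and 0 by limma-voom. At an unadjusted p under 0.05, which 30.5% of all genes reached, 7 were higher and 0 lower. Some marker lists of other cells had medians above this one, at 1.11 for macrophages and monocytes, 1.25 for neutrophils and 2.02 for fibroblasts and endothelium. Of the 9 neutrophil markers, 0 reached an unadjusted edgeR p under 0.05. The other marker medians were lower, at 0.80 for erythroid cells, 0.27 for T and NK cells, 0.21 for B and plasma cells and -0.43 for the epithelium. The fibroblast and endothelial markers summed to 565 CPM in KO replicate 2, against 75.0 CPM in KO replicate 1 and 55.5 and 82.1 CPM in WT. The part of these cells in the NF-kB-induced list was not tested. WT replicate 1 was low here too, with a median log2 ratio of WT replicate 1 to WT replicate 2 of -1.19 over the list, against -0.56 over the members of TNF receptor death signalling. Nfkbia encodes IkBa, which holds NF-kB in the cytosol. It was at 182 and 187 CPM in KO, against 42.8 and 109 CPM in WT (log2 fold change 1.28, edgeR adjusted p = 0.149), and passed with DESeq2 (adjusted p = 0.019). Its log2 fold change was 0.76 without WT replicate 1 and 2.14 without WT replicate 2. Nfkb1 was at 76.0 and 84.5 CPM in KO, against 57.3 and 63.3 CPM in WT (0.41, edgeR adjusted p = 0.0984). Relb was at 73.7 and 96.1 CPM in KO, against 73.1 and 77.9 CPM in WT (0.17, edgeR adjusted p = 0.511).

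**Figure D4:**
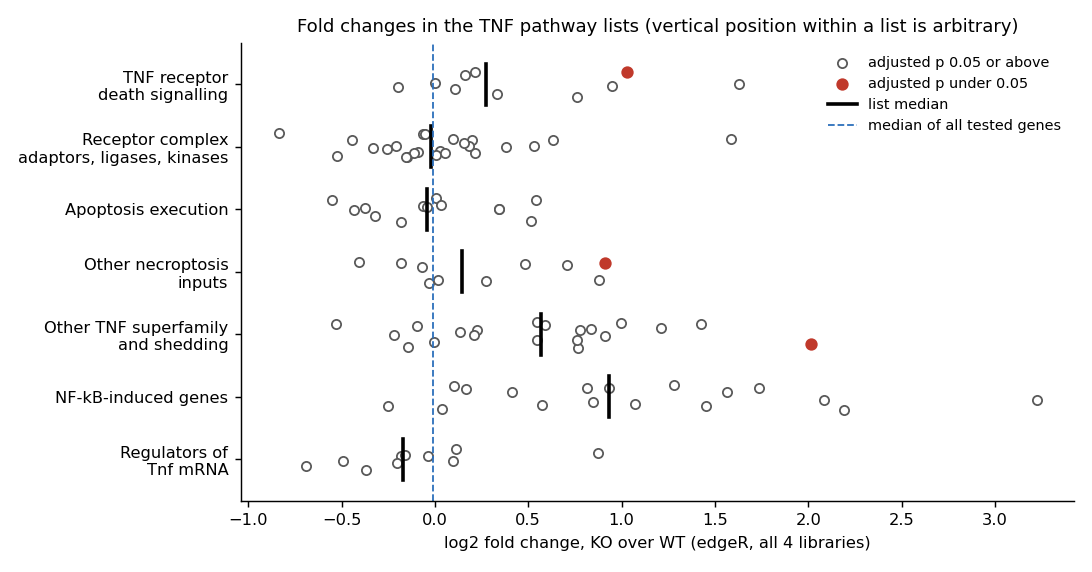
The edgeR log2 fold change (KO over WT) of every tested gene in the 7 lists, with a bar for each list's median and a dashed line for the median of all tested genes (-0.01). Fadd, Tlr3 and Tnfsf15 are the 3 filled points with an adjusted p under 0.05, and the NF-kB-induced list has the highest median of these 7, 0.93.

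Each marker of the epithelium and of other cell types had counts in every library, so 0 of them were at 0. The 8 epithelial markers summed to 6614 and 5947 CPM in KO, against 6998 and 8866 CPM in WT, with 0 calls by edgeR and 3 lower at an unadjusted p under 0.05. The 12 macrophage and monocyte markers, of which 3 rose by edgeR (Itgam, Cx3cr1 and C1qa, named after their values were seen), summed to 223 and 199 CPM in KO, against 134 and 187 CPM in WT. The 9 neutrophil markers summed to 226 and 122 CPM in KO, against 49.3 and 184 CPM in WT, so that WT replicate 1, the library low in Tnf and Tnfaip3, was also the lowest in them. The T and NK cell markers summed to 73.9 and 62.7 CPM in KO, against 57.6 and 53.8 CPM in WT. The B and plasma cell markers summed to 29.1 and 17.1 CPM in KO, against 9.54 and 31.2 CPM in WT. Fibroblast and endothelial markers reached 565 CPM in KO replicate 2, against 75.0 CPM in KO replicate 1 and 55.5 and 82.1 CPM in WT. Erythroid markers reached 6681 CPM in KO replicate 2, against 1353 CPM in KO replicate 1 and 1976 and 2736 CPM in WT. The part of these cells in the levels of Tnf, Tnfaip3, Ripk3, Tradd and Fadd was not tested.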

How the data were processed

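RNA sequencing of oligo-dT-selected mRNA gave 4 libraries, per the labels' protocols. Their processing notes, from the submitters, list STAR 2.4.2a, RSEM 1.2.29, FastQC 0.11.2 and mm10, with no role for any of them. The deposited table holds raw counts, whole numbers whose totals differ between libraries. Annotation, strandedness and any rounding of estimates are not stated there. Of 50600 identifiers, 99.6% matched GENCODE M21 (GRCm38, the assembly of mm10), and 0 columns lacked a sample. Genotype labels set the groups; replicate numbers follow accession order and pair nothing.

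Genes passing filterByExpr were scaled by TMM (trimmed mean of M-values) and tested with edgeR 4.0.16 in R 4.3.3 (two-sided quasi-likelihood F-test, legacy and robust options on, Benjamini-Hochberg over 14861 genes, threshold 0.05). The standard error (SE) is the size of edgeR's unshrunken log2 fold change, regardless of sign, divided by the square root of F. CPM are after TMM scaling. Alternatives were other scaling factors, DESeq2 1.42.0, limma-voom (limma 3.58.1), other edgeR options and filters, leaving out mitochondrial and the 10 highest genes, sex as a covariate, and omission of each library. Members and lists were chosen with earlier results of these data known. Named genes are the members, Mettl14, and in each list the called genes and the 3 most abundant, except a few that are not reported here. Ly6g, the called macrophage markers and the genes overlapping Fadd and Ripk1 were added after their values were seen. Itgam has 2 entries, of which the more abundant was used. Motif letters were searched on both strands of RefSeq windows.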

Additional observations from a re-analysis of the deposited data

How the results depend on the processing

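Fadd was called in every alternative that kept all 4 libraries. Its log2 fold change ran from 0.94 to 1.199 over all 15 alternatives. The 5 within-library ratios kept their direction with 0.5 added to the counts. Of the results for single genes under an alternative, 363 kept their direction and side of the threshold, 30 passed anew, 8 were lost and 34 changed sign. The cause of these changes was not tested.

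Over all genes, the count called was 1927 with DESeq2, 1632 with no filter, 1409 with sex as a covariate, and 0 to 2337 with 1 library left out. Higher calls numbered 604 with library size scaling, 416 with upper quartile factors, 952 with DESeq2, 862 with no filter, 696 with sex as a covariate, and 0 to 1306 with 1 library left out. Lower calls numbered 186 with library size scaling, 975 with DESeq2, 770 with no filter, 713 with sex as a covariate, and 0 to 1031 with 1 library left out. With 1 library left out, the lone library of its group was assumed to vary like the other group. Without a WT library, the spread thus came from the KO libraries alone. The median gap between replicates was 0.13 in KO and 0.21 in WT on the log2 scale.

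Members called higher numbered 2 with sex as a covariate, where Ripk3 passed at 1.03. That number and the list counts below also moved with 1 library left out, as did the calls over all genes. List genes called higher numbered 1 with RLE (relative log expression) factors, 11 with DESeq2, 1 with limma-voom, 7 with no filter, 8 with sex as a covariate, and 0 to 22 with 1 library left out. List genes called lower numbered 3 with DESeq2, 2 with no filter, 1 with sex as a covariate, and 0 to 2 with 1 library left out.

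With 1 library left out, the log2 fold change ran from 0.83 to 3.68 for Tnf, -0.022 to 0.54 for Tnfrsf1a, -0.014 to 0.82 for Tradd, 0.94 to 1.16 for Fadd, -0.16 to 0.52 for Mlkl, -0.0677 to 0.0809 for Cflar and 0.16 to 1.84 for Tnfaip3. It ran from -0.0758 to 0.15 for Bak1, -0.23 to 0.14 for Cycs, -0.14 to 0.11 for Ppm1b, -0.15 to 0.77 for Tnfrsf21, -0.12 to 0.15 for Ltbr and -0.0197 to 0.35 for Relb.

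Cflar turned positive at 0.0106 with RLE factors, 0.16 with library size scaling, 0.0705 with upper quartile factors, 0.0105 with DESeq2, 0.0239 with no filter, 0.00621 with a filter of 1 CPM in 2 libraries and 0.0302 without mitochondrial and the 10 most abundant genes. Ltbr did so at 0.0052 with RLE factors, 0.16 with library size scaling, 0.0671 with upper quartile factors, 0.00509 with DESeq2, 0.000219 with limma-voom, 0.0181 with no filter, 0.00192 with that CPM filter and 0.0257 without those genes. Library size scaling and upper quartile factors gave 0.11 and 0.0271 for Cycs, and 0.14 and 0.0383 for Ppm1b. The labels pair no libraries, and the replicate numbers come from accession order, so no pairing by label was fitted. Sex, with 1 library of each sex in each genotype, entered as a covariate instead. Depth allows up to 0.136 CPM for a count of 0, and each member had at least 57 counts in every library.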

Other observations

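The letters GGACT, which as GGACU are a common core of the m6A consensus, were counted in the longest coding GENCODE transcript of each gene. They are frequent in any transcript, and 92.6% of 13532 tested coding genes held 1 or more. Tnfaip3 held 11 (2.49 per kilobase), Tnfrsf1a 5 (2.32 per kilobase), Ripk3 4 (2.04 per kilobase), Tnf 3 (1.83 per kilobase) and Fadd 7 (1.79 per kilobase). Casp8 held 2 (0.774 per kilobase) and Cflar 7 (1.07 per kilobase). The median over the 10 members was 1.65 per kilobase, against 1.05 per kilobase over the tested coding genes. A match gives letters in an annotated transcript and does not show that a site is methylated, and the isoforms present in these cells were not analysed here.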
